A study of Mus musculus with 2 samples.

Results

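The miR-17~92 cluster is a set of 6 microRNA (miRNA) hairpins, Mir17, Mir18, Mir19a, Mir20a, Mir19b-1 and Mir92-1, that are cut from 1 long non-coding RNA, Mir17hg. Its members were taken as the genes of these 6 names, and all 6 were found among the 1973 miRNA genes of the deposited tables. The samples were 2 miRNA sequencing libraries of lung tissue of B6NCrl mouse embryos at 14.5 days of age (E14.5), labelled biological replicates 1 and 2, with no treatment, genotype or second stage to compare. Per the labels each library came from the lung of 1 pup, yet the labels also give the sex as a pool of both, so the number of embryos behind a library is uncertain. The collection days differed, so replicate and day cannot be told apart.

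A miRNA is made from a hairpin in a longer transcript, which the nuclear enzyme Drosha cuts out and Dicer trims to a short duplex. The arm of the duplex that is kept pairs with target mRNAs mainly through its seed, bases 2 to 8. The cluster is transcribed under Myc and E2F factors, favours proliferation and survival, and is needed for lungs of normal size in the mouse embryo. Every full-length transcript holds each hairpin once, whereas the mature forms are known to accumulate to unequal levels in many tissues. How unequal they were in E14.5 lung is described here.

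In mm10 coordinates Mir17hg spans bases 115042879 to 115046727 of chromosome 14, plus strand, in 2 exons. All 6 hairpins lie inside exon 2 (115043271 to 115046727). From the 5′ end they are Mir17 (115043671 to 115043754), Mir18 (115043851 to 115043946), Mir19a (115044000 to 115044081), Mir20a (115044157 to 115044263), Mir19b-1 (115044305 to 115044391) and Mir92-1 (115044427 to 115044506). The tables list them by Ensembl gene identifier, in the same order ENSMUSG00000065508.1, ENSMUSG00000065403.1, ENSMUSG00000065416.1, ENSMUSG00000065442.1, ENSMUSG00000076256.1 and ENSMUSG00000076062.1. The gaps between neighbouring hairpins run from 35 to 96 bases.

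The main mature arm of each member is shown because its seed sorts the members into 4 families, and because copies of it elsewhere decide which reads can be counted. The RefSeq entries (build GRCm38.p6) matched all 6 members. Capitals mark the seed, read 5′ to 3′. Mir17 and Mir20a carry the same seed, Mir19a and Mir19b-1 share another, and Mir18 and Mir92-1 have a seed of their own within the cluster.
miR-17-5p: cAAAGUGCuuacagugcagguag
miR-20a-5p: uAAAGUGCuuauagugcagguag
miR-18a-5p: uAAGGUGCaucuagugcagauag
miR-19a-3p: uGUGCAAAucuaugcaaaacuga
miR-19b-3p: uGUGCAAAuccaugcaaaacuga
miR-92a-3p: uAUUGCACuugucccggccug

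Counting bases from 1 at the 5′ end, miR-17-5p differs from miR-20a-5p at 2 of 23 positions, C1U and C12U, neither of them in the seed. The 2 forms of miR-19 differ at 1 position outside the seed, U11C (miR-19a-3p to miR-19b-3p). The change A4G inside the seed is 1 of 6 that separate miR-17-5p from miR-18a-5p. The arms of Mir17, Mir18, Mir19a and Mir20a listed in the reference occurred in no hairpin of another gene.

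The 2 remaining members have a copy of their main arm on the X chromosome. The whole of miR-19b-3p also lies in the hairpin of Mir19b-2, and the whole of miR-92a-3p in that of Mir92-2. With 1 further base of hairpin at the 3′ end neither sequence was shared with the other copy. The opposite arms, printed here because they can tell the copies apart, occurred in no hairpin of another gene.
miR-19b-1-5p: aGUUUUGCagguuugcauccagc
miR-92a-1-5p: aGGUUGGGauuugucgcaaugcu
The deposited tables keep reads that align to several places apart from the gene counts (32.9% of reads in replicate 1 and 33.1% in replicate 2). Counts of Mir19b-1 and Mir92-1 can therefore miss reads of their main arm, and how many was not tested. The tables give 1 count per hairpin, so the arms of a member cannot be separated either.

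Replicate 1 held 5128214 counts on the strand of a miRNA gene and replicate 2 held 2332032. Levels are these counts scaled to CPM, a total of 1000000 per library. A read covers a mature arm of 21 to 23 bases in every member, so no correction for length was made. A count of 0 allows up to 3 counts, or 0.585 CPM in the deeper replicate 1 and 1.29 CPM in replicate 2. Every interval given is 95% exact (Clopper-Pearson) and, like this limit, covers counting error only, as reads amplified by PCR need not be separate molecules. Endothelial Mir126a (76033 and 58438 CPM), the 3 smooth muscle and mesenchymal markers (8.82% and 7.14% of counts together) and the 5 epithelial miRNAs of the miR-200 family (3.33% and 3.37%) were all present in replicates 1 and 2. Erythroid markers held 0.0497% and 0.0392% of counts and white blood cell markers 0.0691% and 0.0662%, and liver Mir122 stood at 22.4 and 39.5 CPM. The neuronal list checks nothing: 4 of its 5 genes measured were at 0 counts, but all 5 (Mir9-2, Mir9-3 and Mir124a-1 to Mir124a-3) are multi-copy hairpins whose reads can be set aside as multimapping. The striated muscle list held 0.0368% and 0.00549%, mostly Mir208a (299 and 11.6 CPM), with 2 of its 7 genes, the multi-copy Mir133a-1 and Mir133a-2, at 0 counts.

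The cluster held 5.15% of miRNA counts in replicate 1 (interval 5.13 to 5.17) and 6.72% in replicate 2 (6.69 to 6.75), a mean of 5.94% ± 1.11 (SD, n = 2). Nearly all of this came from 4 members, and the 6 levels spread over almost 3 orders of magnitude although the hairpins share a transcript. How well each sequence is captured in a library was not measured. Ratios between members, here and below, are therefore of reads and need not be ratios of molecules. In both libraries each of the 6 members reached 10 counts, as did 320 of the 1973 genes. The members carried no counts on the opposite strand (0 in each library).

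Mir17, founder of the seed family that restrains the cell cycle inhibitor Cdkn1a and the TGF-beta receptor Tgfbr2, was the most abundant member. Replicate 1 gave 29342 CPM and replicate 2 gave 40814 CPM, a mean of 35078 ± 8112 (SD, n = 2). That placed it at rank 12 among all genes in replicate 1 and rank 6 in replicate 2. These ranks leave out reads set aside as multimapping, so multi-copy genes can stand too low and the rank of Mir17 may be overstated. Its libraries did not overlap in their counting intervals (29200 to 29490 and 40560 to 41070 CPM). Such intervals are narrow at high counts. By the binomial test given below, 72.7% of genes of at least 100 CPM differed between the libraries.

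Mir20a, which has the seed of Mir17, followed with 12413 CPM in the first library and 16128 CPM in the second (mean 14271 ± 2627). It too was higher in replicate 2. Within a library Mir17 exceeded Mir20a 2.36-fold in replicate 1 and 2.53-fold in replicate 2. The log2 ratio of Mir17 to Mir20a was 1.29 ± 0.07 (SD, n = 2). Whether a steady ratio is particular to a shared seed cannot be told here. Mir20a to Mir19a, with different seeds, was 189.5-fold in replicate 1 and 190.9-fold in replicate 2. That ratio rests on 336 and 197 counts of Mir19a, too few to say which of these ratios moved less.

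Mir18, whose seed differs from that of Mir17 at 1 base, gave 5687 CPM in replicate 1 against 5885 CPM in replicate 2 (mean 5786 ± 139.9). Its libraries were close, unlike those of Mir17. Mir20a exceeded it 2.18-fold in replicate 1 and 2.74-fold in replicate 2.

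Mir92-1, source of miR-92a, an miRNA known for restraining vessel growth in endothelial cells, measured 3966 and 4262 CPM in replicates 1 and 2 (mean 4114 ± 209). It stood below Mir18 by 1.43-fold and 1.38-fold, a small but repeated gap (log2 0.49 ± 0.04). Since miR-92a-3p has another copy, the level of Mir92-1 may be understated and its place next to Mir18 is uncertain.

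The members with the miR-19 seed, known as the part of the cluster that most promotes lymphoma, were far lower. Mir19a was at 65.5 CPM in replicate 1 (interval 58.7 to 72.9) and 84.5 CPM in replicate 2 (73.1 to 97.1), from 336 and 197 counts. Mir17 exceeded it 448-fold in replicate 1 and 483-fold in replicate 2.

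Mir19b-1 was the lowest member, at 31.6 CPM in replicate 1 (26.9 to 36.9) and 42.0 CPM in replicate 2 (34.1 to 51.2), from 162 and 98 counts. Mir19a exceeded it 2.07-fold and 2.01-fold. Both values of Mir19b-1 may be understated because of the copy in Mir19b-2, so which miR-19 gene was the more abundant is not settled.

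**Figure D1:**
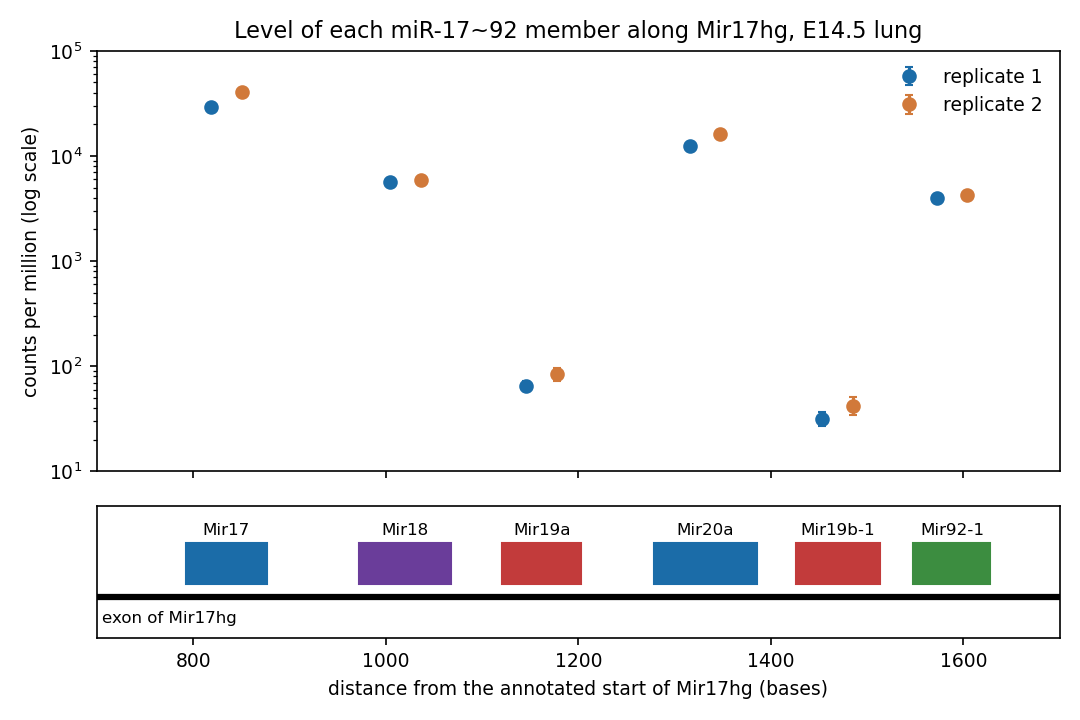
Level of each member in CPM (log axis) against its distance in bases from the annotated start of Mir17hg, with 95% exact intervals for counting error and the hairpins drawn to scale below, coloured by the seed family of their main arm. Mir19a, at 65.5 and 84.5 CPM, lies between Mir18 and Mir20a on the transcript, which were at 5687 CPM or more.

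The order Mir17, Mir20a, Mir18, Mir92-1, Mir19a and Mir19b-1 was the same in both libraries. The 5 steps between neighbours in this order ran from a log2 ratio of 0.49 ± 0.04 (SD, n = 2, Mir18 to Mir92-1) to 5.79 ± 0.19 (Mir92-1 to Mir19a). The order was taken from these same libraries, so steps above 0 lend it no support. The places of Mir92-1 and Mir19b-1 also depend on reads of their main arms that can be set aside. No p-value is given, since an exact two-sided test on 2 libraries cannot go below 0.5. The levels did not follow the position on the transcript. The highest member is the first and the lowest is the fifth, while the low Mir19a is flanked by Mir18 and Mir20a.

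Features of the hairpins were computed from the RefSeq sequences, and their part in the levels was not tested. GC content ran from 43.7% in Mir19b-1 to 47.5% in Mir92-1, with Mir18 (43.75%) and Mir19a (43.9%) next to the former. The folding energy predicted by RNAfold ran from -38.7 kcal/mol in Mir19a, the most stable predicted fold, to -29.2 kcal/mol in Mir18.

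As shares of the cluster's own counts, which need no scaling between libraries, the members differed modestly between replicates. Mir17 made up 57.0% in replicate 1 (interval 56.8 to 57.2) and 60.7% in replicate 2 (60.5 to 61.0). Mir20a held 24.1% and 24.0%, with overlapping intervals. The shares of Mir18 (11.0% and 8.75%) and Mir92-1 (7.70% and 6.34%) were smaller in replicate 2. Mir19a held 0.127% and 0.126%, and Mir19b-1 0.0613% and 0.0625%, both with overlapping intervals. Thus Mir17 to Mir18 went from 5.16-fold to 6.94-fold, the largest shift among the 15 pairs. Mir20a to Mir19a was 189-fold and 191-fold, on the few counts of Mir19a.

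**Figure D2:**
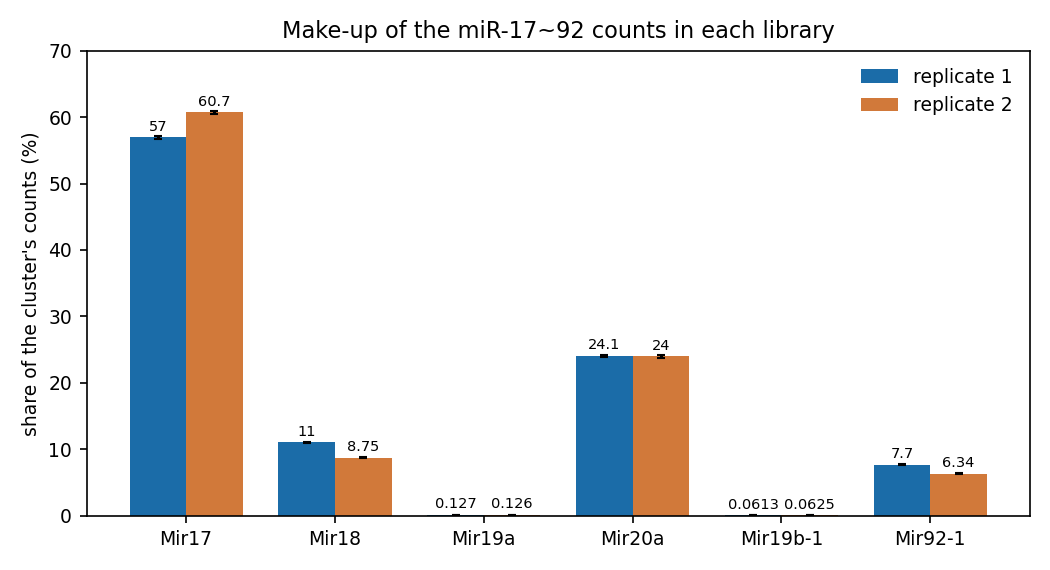
Share of the cluster's counts held by each member (%) in replicates 1 and 2, with 95% exact intervals for counting error. Mir17 and Mir20a together make up over 80% in both libraries, and the bars of Mir19a and Mir19b-1 do not rise visibly above 0.

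Neighbouring hairpins of other loci gave a scale for this spread. Hairpins on 1 strand with gaps of at most 1000 bases formed 15 clusters with at least 3 genes of 10 counts or more in both libraries. Their highest member exceeded their lowest by a median of 24.4-fold. In the miR-17~92 cluster Mir17 exceeded Mir19b-1 by 929-fold and 971-fold, the widest of the 15. When gaps of up to 10000 bases were allowed, a setting added after seeing the data, it ranked 3 of 13 clusters, whose median was 70.2-fold. The spread of miR-17~92 ends at Mir19b-1, whose main arm has a copy, so it may be overstated. Over Mir19a, whose listed arm has none, Mir17 was 448-fold and 483-fold higher in replicates 1 and 2. With gaps of at most 1000 bases the next widest cluster spanned 213-fold and 165-fold. Reads of multi-copy hairpins may be set aside in other clusters as well, and these spreads were not tested.

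The same seeds recur in 2 paralogous clusters, which are related to it by duplication: miR-106b~25 on chromosome 5 (Mir106b, Mir93 and Mir25) and an X-linked cluster (Mir106a, Mir18b, Mir20b, Mir19b-2, Mir92-2 and Mir363). The arms with the miR-17 seed are printed to show how little separates them outside it. From miR-17-5p the change to miR-106a-5p is U10A alone, that to miR-20b-5p is U10C and C12U, and that to miR-93-5p is U10G, A11U, C12U and A13C.
miR-106a-5p: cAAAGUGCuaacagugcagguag
miR-20b-5p: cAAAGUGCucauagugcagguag
miR-93-5p: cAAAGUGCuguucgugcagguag
miR-106b-5p: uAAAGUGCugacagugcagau
Of the counts of the 3 clusters, miR-17~92 held 71.9% in replicate 1 and 74.5% in replicate 2, against 25.8% and 23.2% for miR-106b~25 and 2.31% and 2.25% for the X-linked cluster. The ranges of the 3 clusters over the libraries did not overlap, and the differences were not tested.

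The lead of the members over their X-linked paralogs depended on the gene. Mir17 exceeded Mir106a (567 and 770 CPM) 51.8-fold in replicate 1 and 53.0-fold in replicate 2. Mir18 exceeded Mir18b (53.0 and 67.8 CPM) 107-fold and 86.9-fold, and Mir20a exceeded Mir20b (382 and 516 CPM) 32.5-fold and 31.3-fold. Mir92-1 exceeded Mir92-2 (181 and 187 CPM), with which it shares its main arm, 22.0-fold and 22.8-fold. The gap was smallest for Mir19b-1 over Mir19b-2 (8.58 and 16.3 CPM), 3.68-fold and 2.58-fold. That pair also shares its main arm, and it rests on 44 and 38 counts of Mir19b-2. Reads of the shared arms can be set aside, so the ratios of both pairs are uncertain. The miR-19 gene, Mir19b-2, had the lowest level in the X-linked cluster as well, though it can miss reads of the shared arm.

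**Figure D3:**
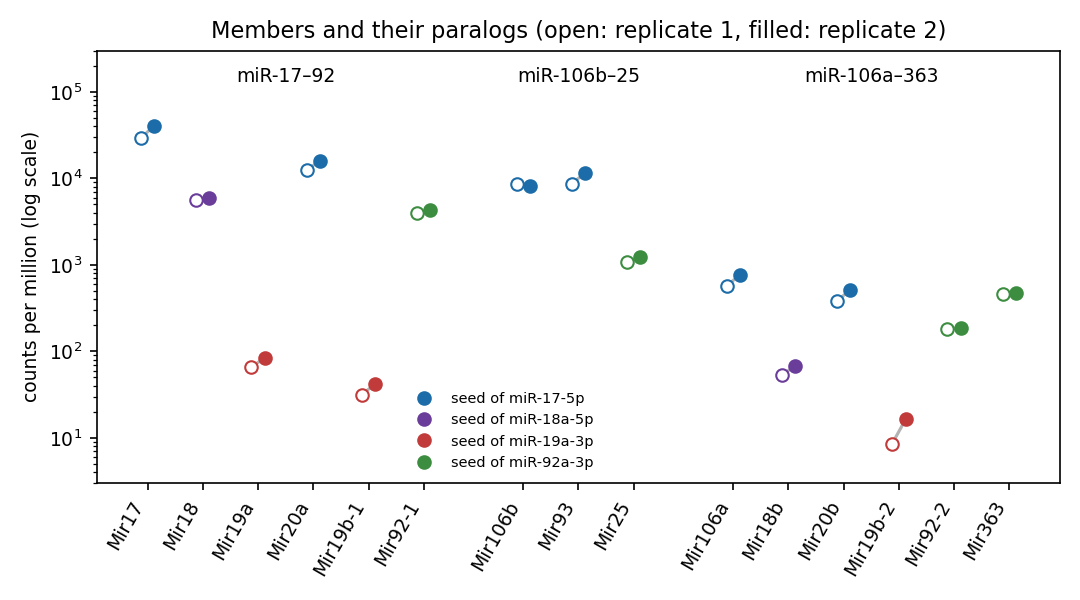
CPM (log axis) of the members and of the genes of both paralogous clusters, with open circles for replicate 1 and filled circles for replicate 2, coloured by seed family. Genes with the miR-19 seed lie lowest in the miR-17~92 cluster and in the X-linked cluster. Mir19b-1 and Mir19b-2 share their main arm, so the levels of both may be understated.

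Summed over genes with an arm of each seed, the cluster supplied most counts of 3 families and just over 50% of the fourth. These sums hold both arms of a hairpin, so they are not counts of the seed itself. Reads of miR-19b-3p and miR-92a-3p can be set aside as multimapping, so the shares and totals of the miR-19 and miR-92 families are uncertain. Mir17 and Mir20a made up 69.5% and 73.1% of the counts of genes with the miR-17 seed in replicates 1 and 2, the rest being Mir93, Mir106b, Mir106a and Mir20b, with Mir6383 at 0 counts. Mir18 made up 99.1% and 98.9% of its family, with Mir18b as the other member. Mir19a and Mir19b-1 made up 91.9% and 88.6% of the counts with the miR-19 seed, beside Mir19b-2. Mir92-1 made up 54.0% and 55.4% of those with the miR-92 seed, followed by Mir92b (1361 and 1286 CPM), Mir25 (1070 and 1227 CPM), Mir363 (463 and 471 CPM), Mir32 (306 and 261 CPM) and Mir92-2, while Mir367 of pluripotent cells was at 0 counts. Besides these, Mir7069, which shares the seed of the minor arm of Mir18, had 17 and 7 counts and so fell below 10 counts in replicate 2. As a whole the miR-17 seed family held 6.01% and 7.79% of miRNA counts, the miR-92 family 0.735% and 0.769%, the miR-18 family 0.574% and 0.595% and the miR-19 family 0.0106% and 0.0143%.

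Between the libraries, Mir17 and Mir20a, the 2 most abundant members, were higher in replicate 2 by more than counting error, while the other 4 members did not pass the test. Genes whose counts over both libraries summed to 10 or more were each given an exact two-sided binomial test with TMM-scaled library sizes and Benjamini-Hochberg adjustment over all 404 genes. Of the 6 members 2 passed an adjusted p of 0.05, both higher in replicate 2, against 40.3% of all genes in either direction and 19.8% in that direction. Genes of at least 100 CPM passed in 72.7% of cases, so abundance bears on these calls. The test compares 2 libraries and not conditions.

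Mir17 had a log2 ratio of replicate 2 to replicate 1 of 0.41 (exact interval 0.40 to 0.42) and Mir20a of 0.31 (0.29 to 0.33, exact binomial adjusted p = 2.32e-231). For Mir17 the adjusted p was at or under 1e-300, the lowest value given. Mir19a (0.29, interval 0.04 to 0.56, exact binomial adjusted p = 0.0548) and Mir19b-1 (0.33, interval -0.03 to 0.71, adjusted p = 0.129) had similar ratios on few counts. Mir92-1 (0.04, interval 0.0002 to 0.07, exact binomial adjusted p = 0.103) and Mir18 (-0.02, interval -0.05 to 0.01, adjusted p = 0.328) were close to equal. The median of the 6 was 0.30, beside -0.01 over all genes tested, and the summed cluster stood at 0.32 (0.31 to 0.32).

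These calls depended on the scaling and on the spread allowed between libraries. With library totals the whole set of ratios moved up by 0.07, 5 of 6 members passed (43.8% of all genes), and Mir18 was called higher at 0.05 (exact binomial adjusted p = 0.00297), while the split over all genes went from 80 higher and 83 lower to 112 and 65. With genes of at least 1 count tested, Mir18 was instead called lower (-0.04, exact binomial adjusted p = 0.0331), so its direction is not settled. Under edgeR's exact test with a dispersion shared by all genes and estimated from both libraries (0.034, a coefficient of variation of 18.3%), 0 of 6 members passed, also at an unadjusted p of 0.05, against 0.248% of all genes (1 of 404) and 16 genes unadjusted. That gene was Mir208a, a heart muscle miRNA named here after its values were seen. This dispersion came from the same libraries that it was used to compare, so it takes in their differences and few genes could pass. The edgeR test therefore cannot decide whether Mir17 and Mir20a differed by more than the usual spread between replicates.

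Grouped by seed, the ratios of replicate 2 to replicate 1 were as follows. Of the 6 genes with the miR-17 seed tested, 5 were higher in replicate 2 by the binomial test (19.8% of all genes): Mir17, Mir20a, Mir93 (0.34), Mir106a (0.37) and Mir20b (0.36). All 6 were above 100 CPM, where 72.7% of genes passed in either direction, so the 19.8% is not matched for level. The share higher in replicate 2 among genes of that level was not computed. Mir106b (-0.16, exact binomial adjusted p = 1.89e-38) was lower. Genes with the miR-92 seed gave Mir92-1 at 0.04, Mir92-2 at -0.02 and Mir363 at -0.05, none of which passed. With library totals Mir92-2 and Mir363 turned to 0.05 and 0.02. The others of that seed were Mir25 (0.13), Mir92b (-0.15) and Mir32 (-0.30), all of which passed. In the X-linked cluster 3 of 6 genes passed, near the 40.3% of all genes, Mir106a, Mir20b and Mir19b-2 (0.79, interval 0.19 to 1.52), all higher in replicate 2, while Mir18b (0.28), Mir92-2 and Mir363 did not. None of these genes passed with the common dispersion added, and no difference between seeds was tested.

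**Figure D4:**
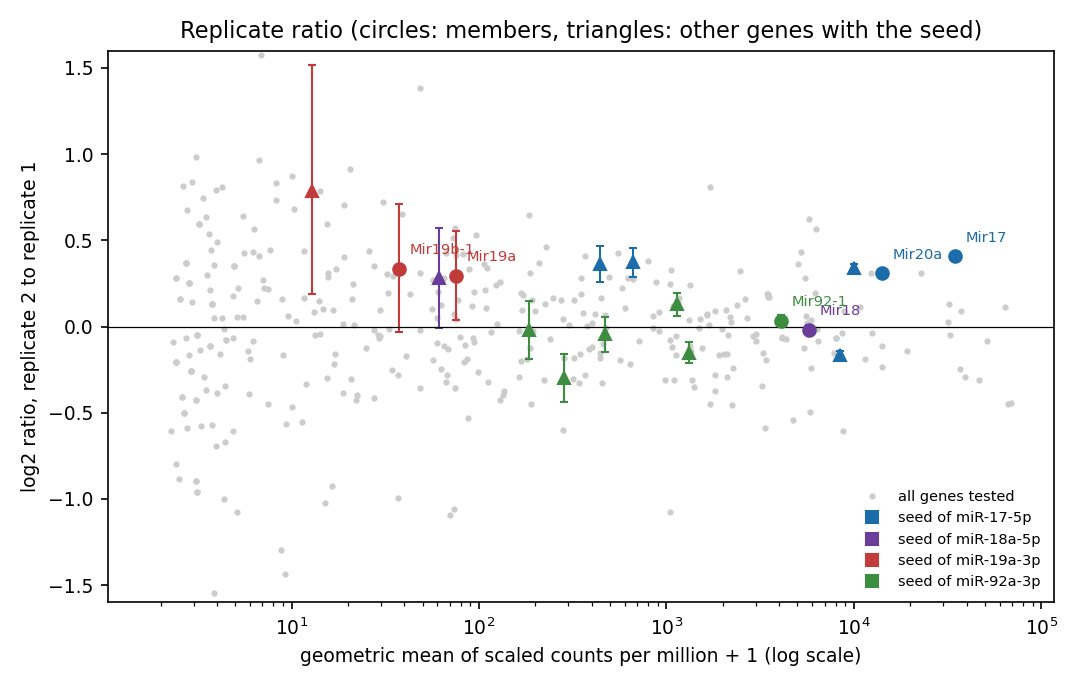
Log2 ratio of replicate 2 to replicate 1 against the geometric mean of TMM-scaled CPM + 1 (log axis) for all 404 genes tested, 3 of which lie outside the axis, with members as circles and other genes of their seed families as triangles, and 95% exact intervals for counting error. Mir17 and Mir20a lie above 0.3 and Mir18 and Mir92-1 near 0.

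Marker genes of cell types also differed between the libraries. Endothelial Mir126a was at 7.60% of counts in replicate 1 and 5.84% in replicate 2. The smooth muscle and mesenchymal list held 8.82% and 7.14%, but its members did not move together: Mir143 was at 78321 and 60488 CPM, Mir145a at 1470 and 1535 CPM and Mir214 at 8430 and 9409 CPM. The epithelial list held 3.33% and 3.37%, with Mir429 lower in replicate 2 (14949 and 13319 CPM) and its other 4 genes higher. Among the scarcer markers the striated muscle list differed most in ratio, at 0.0368% and 0.00549%. The erythroid list held 0.0497% and 0.0392%, the white blood cell list 0.0691% and 0.0662%, and liver Mir122 was at 22.4 and 39.5 CPM. Shares of a fixed total are not independent of each other, and the part of these lists in the ratios of the members was not tested. In tissue RNA fewer cells of a type and less of a miRNA per cell cannot be told apart. Outside the cluster and its paralogs, the 3 genes of at least 100 CPM with ratios nearest to that of the summed cluster were Mir30e (0.31), Mir30a (0.31) and Mir425 (0.32), a likeness over 2 libraries only.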

How the data were processed

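Small RNA of 2 libraries of E14.5 mouse lung was sequenced. The authors deposited raw counts per miRNA gene in 3 columns (both strands, gene strand, opposite strand, judged from the values), from alignments to mm10 with GENCODE M4, per the deposited readme. For the aligner and the counter: not given in the sources used here. The 4 summary entries, which name no gene (48.3% and 47.2% of reads in replicates 1 and 2), entered neither library sizes nor tests.

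Gene-strand counts were used. Of 1973 identifiers 1894 matched symbols of GENCODE M21, which is on the same build. Members, lists and named genes (members, both paralogous clusters, genes sharing a seed with at least 10 counts in both libraries, 3 genes of nearest ratio, markers) were chosen with earlier results of these data known. Seeds, copies and differences were read from the RefSeq hairpin and mature tables, and copies at loci outside these tables and the GENCODE transcripts were not looked for.

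Log2 ratios are of CPM after TMM scaling, plus 1 CPM, with scaling factors from genes of at least 10 counts over both libraries. Their exact intervals use the counts without a pseudocount. With 1 library in each arm of this comparison, edgeR's quasi-likelihood test has no residual degrees of freedom. Each gene was therefore given an exact binomial test with Benjamini-Hochberg adjustment. It was checked on simulated data with counting error only, so the check does not cover spread between libraries. P-values of the binomial test measure reads of these libraries. Alternatives were other denominators, columns, scalings, count filters and pseudocounts, left-out members or replicates, and edgeR's exact test with a common dispersion. Software was R 4.3.3, edgeR 4.0.16, DESeq2 1.42.0 (size factors), ViennaRNA 2.7.2, Python 3.11.15 and scipy 1.17.1. The number of columns of per-sample values left unused for lack of a sample was 0.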

Additional observations from a re-analysis of the deposited data

How the results depend on the processing

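No paired analysis was possible because the samples form 1 group. Single libraries gave a cluster share of 5.15% to 6.72%, a Mir17 share of the cluster of 57.0% to 60.7% and a log2 ratio of Mir17 to Mir19b-1 of 9.86 to 9.92. The cluster share was 3.49% with multimapping and other unassigned reads in the denominator, and Mir17 made up 63.3% of the cluster without Mir19b-1 and Mir92-1, in each case by construction. The replicate ratio of the cluster was 0.38 with library totals and 0.18 without Mir17. Members that passed the binomial test numbered 2 (40.3% of all genes), and 5 with library totals (43.8%), 4 with at least 50 counts (56.9%), 4 with both strands counted (43.6%), 3 with at least 1 count (23.7%), 2 with DESeq2 size factors (40.6%) and 0 (1 of all genes) with the edgeR dispersion. Mir18 was called higher with library totals (adjusted p = 0.00297, exact binomial test) and lower with at least 1 count (-0.04, adjusted p = 0.0331). With library totals Mir18 (0.0493), Mir92-2 (0.0499) and Mir363 (0.0232) changed sign. The other alternatives to the binomial test kept Mir17 and Mir20a among the genes called. With 162 and 98 counts for Mir19b-1, the depth limits the ratios of the miR-19 genes.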
